A study of Homo sapiens with 10 samples.

Results

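The comparison covers the early stretch of a genome-wide CRISPR knockout screen in 22Rv1 cells that overexpress NMYC, from the start of culture (T0) to the T6 collection. It rests on 3 of the 10 libraries in the series: a single T0 library and 2 T6 libraries from replicate cultures. They were chosen by their labels alone, with every one of the 55849 sgRNAs in the table taken in and summarised by gene symbol. 22Rv1 is an established human prostate cancer cell line, and the labels give the cells as carrying NMYC (the protein of the MYCN gene) in excess. The sources used here do not say which promoter or vector drives NMYC, or whether the line is a clone. Cells were infected with the lentiCRISPRv2_B library at a multiplicity of 0.3 and selected with puromycin, T0 cells were collected, and duplicate cultures were then plated and passaged every 72 hours for 12 generations. What the 6 in T6 counts is left unsaid in those sources. The parental line went through the same steps and serves below as a side-by-side comparison with its own T0 library and its own 2 T6 libraries. The readout is DNA, so neither the level of NMYC nor the prostate identity of the cells could be checked against markers here.

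In such a screen each cell carries an integrated sgRNA cassette that directs the Cas9 nuclease to cut a chosen gene. Cells that lose a gene they need divide more slowly or die, and their sgRNA becomes rarer, whereas loss of a gene that restrains growth makes the sgRNA more common. Core machinery such as the ribosome, the proteasome and the spliceosome is needed by nearly all dividing cells and usually gives the clearest early depletion. MYCN encodes a transcription factor that pairs with MAX and drives growth and biosynthesis. The series design asks which knockouts harm cells with excess MYCN, and its title names NEUROG2, a proneural transcription factor. The table names sgRNAs by number without their sequences, so no sgRNA sequence is shown.

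The NMYC T0 library held 15454006 counts, T6 replicate 1 held 14944879 and T6 replicate 2 held 9538593. The median count per sgRNA was 113 at T0 and 187 and 117 at T6, and 2.98%, 3.14% and 5.87% of the sgRNAs had 0 counts. Counts were spread less evenly at T0 than in either T6 library. The most abundant 1% of sgRNAs held 9.33% of the counts at T0 and 5.55% and 5.78% at T6, and the Gini index, which is 0 when all sgRNAs are equally common, went from 0.669 to 0.523 and 0.536. Depth limits only the counting error, since reads copied by PCR do not each stand for a separate cell.

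Single sgRNAs differed widely between T0 and T6, and the 2 T6 cultures also differed from each other. Levels are in CPM, counts divided by the library size after TMM adjustment and given on the usual CPM scale, and an sgRNA's or gene's log2 value is log2 of its mean T6 level plus 1 CPM over its T0 level plus 1 CPM, minus the median over all sgRNAs or genes. Of the 53040 sgRNAs kept, with a mean of at least 20 counts over the 10 libraries, 28.5% differed at least 4-fold (15111 sgRNAs) between T0 and T6 replicate 1, as did 15931 sgRNAs between T0 and T6 replicate 2. Between the T6 replicates, 20.2% differed at least 4-fold. Spearman correlations of CPM over these sgRNAs, which are not independent replicates, were 0.48 between the T6 replicates and 0.415 and 0.403 between T0 and each of them. In both cultures alike, 4651 sgRNAs (8.77%) were at least 4-fold lower than T0 and 3070 (5.79%) at least 4-fold higher, and 47 were past 4-fold in opposite directions. The T0 library is common to both of these comparisons.

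Non-targeting sgRNAs, which match no human gene and show what happens without a knockout, spread nearly as widely as the rest. Of 934 kept, 69 (7.39%) were at least 4-fold lower in both T6 cultures and 61 (6.53%) at least 4-fold higher. For the 52106 sgRNAs against genes, these shares were 8.79% and 5.77%. The SD of the log2 value was 1.72 over non-targeting and 1.74 over targeting sgRNAs, with medians of 0.163 and -0.00276. Of 29196 targeting sgRNAs with at least 100 counts at T0, 64 (0.219%) had 0 counts in both T6 libraries. Of 498 such non-targeting sgRNAs 0 did so, which allows a share of up to 0.602%, so the 2 kinds could not be told apart. Conversely 21 of 1633 targeting sgRNAs with 0 counts at T0 (1.29%) had at least 100 in both T6 libraries. Of 29 such non-targeting sgRNAs 0 did, which allows up to 10.3%.

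Size and direction of the difference went with the T0 level. The sgRNAs were split by T0 level into 5 equal bins. In bin 1, with 0 to 23 counts at T0, the median log2 value was 1.73 for 10406 targeting and 1.77 for 202 non-targeting sgRNAs. In bin 3 the medians were 0.05 and 0.17. In bin 5, with 414 to 4979 counts at T0, they were -2.04 for 10433 targeting and -1.84 for 175 non-targeting sgRNAs. In bin 5, 33.9% of the targeting and 29.1% of the non-targeting sgRNAs were at least 4-fold lower in both cultures. The share in bin 1 was 0.0% of either kind, but this was fixed in advance. With 1 CPM added to each level, an sgRNA with at most 23 counts at T0 could not come out 4-fold lower even with 0 counts at T6. Between these ends the medians were 0.91 and 1.04 in bin 2 and -0.49 and -0.41 in bin 4. The T0 count enters both the grouping and the log2 value, so the slope itself is a description and was not tested.

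No single sgRNA passed the test between T0 and T6. With edgeR's quasi-likelihood test 0 of 53040 sgRNAs were lower and 0 higher at a Benjamini-Hochberg adjusted p under 0.05 (0.0% called in each direction). At an unadjusted p under 0.05 there were 1721 lower (3.24%) and 240 higher (0.452%). DESeq2 on the same counts gave 58 lower and 33 higher of the 53040 sgRNAs. On the NMYC libraries alone edgeR gave 38 lower and 0 higher of the 53040. Without either parental T12 library, which takes part only through the shared spread, edgeR gave 3 lower sgRNAs.

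The 5 sgRNAs with the smallest p on the lower side were nearly gone at T6, yet their companion sgRNAs mostly were not lower. The sgRNA against AHCY, the enzyme that breaks down S-adenosylhomocysteine after methylation reactions, went from 2231 counts at T0 to 2 and 0 at T6 (edgeR adjusted p = 0.347). The other AHCY sgRNAs went from 0 to 75 and 22 counts and from 73 to 338 and 320. An sgRNA against SAMD9, an interferon-induced antiviral protein, went from 1254 counts to 0 and 1 (edgeR adjusted p = 0.311), and its companions from 113 to 406 and 181 and from 11 to 112 and 166. The ABHD1 sgRNA went from 1827 to 0 and 1 (edgeR adjusted p = 0.311), with 1 of 2 companions lower in both cultures. That against CMTM2 went from 2053 to 33 and 17 with 1 of 2 companions lower, and that against LRRC52 from 3650 to 63 and 3 with 0 of 2 lower (edgeR adjusted p = 0.347 for both). On the higher side the smallest p belonged to sgRNAs against ABCB9, PARP8, OR4L1, CCDC19 and UBL4B (edgeR adjusted p = 1.0), which had 8, 0, 6, 13 and 1 counts at T0. The ABCB9 sgRNA went from 8 counts to 816 and 270.

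At the level of genes the question was which knockouts were already rarer or more common by T6. Genes were ranked with a MAGeCK-type score, robust rank aggregation, over the edgeR p-values of their sgRNAs. Of 18197 genes with at least 2 kept sgRNAs, 0 were depleted and 0 enriched at an adjusted p under 0.05 (0.0% called in each direction). At an unadjusted p under 0.05 there were 931 lower (5.12%) and 906 higher (4.98%). With DESeq2 p-values the counts were 0 and 0, and the edgeR test on counts summed per gene gave 0 and 0, with 1177 lower (6.47%) and 124 higher (0.681%) unadjusted. The genes named next are therefore those ranked first among genes with at least 3 kept sgRNAs, given as values that did not pass.

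The gene ranked lowest was NUDT22, a member of the Nudix hydrolase family. Its 3 sgRNAs summed to 216.8 CPM at T0 and 4.93 and 7.73 CPM at T6 (6.33 ± 1.98, SD, n = 2; log2 value -4.66; rank aggregation on edgeR p-values, adjusted p = 0.697). All 3 of its sgRNAs were lower in both cultures: 2016 counts became 78 and 44, 750 became 18 and 53, and 27 became 0 and 0. AADAC, a lipid and drug hydrolase known from liver, had 285.7 CPM at T0 and 6.89 and 6.38 at T6 (log2 value -5.00; rank aggregation on edgeR p-values, adjusted p = 0.697), with all 3 sgRNAs lower. At T12 AADAC stood at 85.4 and 97.3 CPM and NUDT22 at 46.3 and 2.24 CPM.

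ACLY, ATP citrate lyase, makes cytosolic acetyl-CoA for lipid synthesis and histone acetylation. It went from 329 CPM to 24.0 and 9.17 (log2 value -4.00; rank aggregation on edgeR p-values, adjusted p = 0.893). Of its sgRNAs 2 went from 1790 to 87 and 3 counts and from 2173 to 53 and 14, while its remaining sgRNA had 276, then 326 and 98. USP19, a deubiquitinase, went from 303.7 CPM to 55.4 and 12.7 CPM, with all 3 sgRNAs lower (log2 value -2.89). The remaining genes among the 10 lowest were ABHD1 (-2.80), SAMD9 (-1.71), AHCY (-2.60), CMTM2 (-1.97), FAM129A (-2.55) and LRRC52 (-2.18), with adjusted p between 0.893 and 0.943 by rank aggregation on edgeR p-values. In all 10 genes both T6 libraries lay below T0, and their T0 levels stood at percentiles 81.2 (SAMD9) to 99.7 (ACLY) of all genes tested.

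The 10 highest-ranked genes ran from scarce to common at T0, between percentiles 0.978 (ZNF662) and 72.7 (FBN3). SLCO5A1, an organic anion transporter family member, went from 35.2 CPM to 150.3 and 78.0 (log2 value 1.90; rank aggregation on edgeR p-values, adjusted p = 0.168). Its T0 level was at percentile 41.8 of all genes tested, and it stood at 169.7 and 192.2 CPM at T12. EPB41L5, a FERM-domain protein of cell junctions and polarity, went from 3.10 CPM (40 counts over 3 sgRNAs) to 78.2 and 52.4 CPM (log2 value 4.24; rank aggregation on edgeR p-values, adjusted p = 0.168). The zinc finger gene ZNF662 went from 2.33 CPM (30 counts) to 86.2 and 56.9 CPM (log2 value 4.68; rank aggregation on edgeR p-values, adjusted p = 0.321).

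ADSL, which catalyses steps of purine synthesis, had all 3 sgRNAs higher in both cultures. They went from 0 counts to 115 and 57, from 17 to 534 and 104, and from 31 to 470 and 388, which gave 3.73 CPM at T0 and 57.5 and 43.8 CPM at T6 (log2 value 3.68; rank aggregation on edgeR p-values, adjusted p = 0.523). COX5B, a subunit of respiratory complex IV, went from 15.8 CPM to 65.4 and 25.3 CPM (log2 value 1.70), and the integrin subunit ITGAV from 60.7 CPM to 121.6 and 138.9 CPM (log2 value 1.32). ABCB9 (0.84), VSTM1 (3.09) and CDRT1 (3.67) also lay above T0 in both libraries. FBN3, ranked among these 10, had a log2 value of -0.11. Its most abundant sgRNA went from 1072 counts to 1241 and 473 (log2 value -0.88). The others went from 0 to 242 and 0 and from 0 to 179 and 99, so the ranking and the sum differ in sign. Adjusted p for these genes lay between 0.523 and 0.703 by rank aggregation on edgeR p-values.

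As a measure of size without a test, 562 genes (3.09%) lay at least 4-fold below T0 in both T6 cultures relative to the median gene, and 557 (3.06%) at least 4-fold above. The lower set had a median T0 level of 161 CPM and the higher set one of 5.59 CPM, against 43.7 CPM over all genes tested. The median gene sum itself shifted by -0.23 on the log2 scale under TMM, by -0.25 with median-of-ratios factors and by 0.28 when libraries were scaled on non-targeting sgRNAs. Without centring, 57.3% of genes lay below T0 under TMM and 41.6% under the scaling on non-targeting sgRNAs. All log2 values here are relative to the median gene for that reason.

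Agreement of all 3 sgRNAs of a gene was rare. Of 15248 genes with 3 kept sgRNAs, 5 (0.0328%) had all 3 at least 4-fold lower in both cultures and 3 (0.0197%) had all 3 at least 4-fold higher. These genes were named after their values were seen. The lower ones were GGH, the gamma-glutamyl hydrolase of folate turnover, HBE1, the embryonic epsilon-globin, MDGA1, a neural cell surface protein, OR7A5, an olfactory receptor, and TUBA4A, an alpha-tubulin. GGH went from 372.7 CPM to 33.6 and 22.6 CPM, with sgRNA counts of 715, 1741 and 2346 at T0 and 71, 226 and 356 in T6 replicate 1. TUBA4A went from 369.7 to 55.8 and 41.2 CPM and HBE1 from 258 to 46.6 and 42.7 CPM. The higher ones were ADSL, ATP6V1H, a subunit of the vacuolar proton pump, and MICB, a stress-induced ligand of natural killer cells. ATP6V1H went from 4.27 CPM to 59.8 and 51.7 CPM, and MICB from 4.50 CPM to 60.9 and 49.5 CPM.

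MYCN itself was scarce at T0 in NMYC cells. Its sgRNAs had 20, 1 and 20 counts at T0, then 14, 180 and 244 in T6 replicate 1 and 49, 0 and 176 in replicate 2. The sum went from 3.18 CPM to 22.5 and 17.9 CPM (log2 value 2.57; rank aggregation on edgeR p-values, adjusted p = 0.978), and T12 gave 2.09 and 130.4 CPM. Whether these sgRNAs cut the introduced NMYC sequence as well as the resident gene was not tested. MYC went from 27.9 CPM to 10.8 and 20.7 CPM (-0.56) and its partner MAX from 87.2 to 31.5 and 25.2 CPM (-1.36). Over the MYC and MAX network, the list median was -0.02, but 0.16 and 0.23 in the T6 replicates taken singly. In this list 12 of 24 genes were under the median gene and 0 passed the test.

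Growth-restraining genes had values on both sides of T0, and 0 passed the test. RB1, the retinoblastoma protein that restrains the cell cycle, had 2 kept sgRNAs and went from 19.0 to 11.9 and 14.4 CPM (-0.27). MDM2, a ubiquitin ligase, is named from another list, that of proposed synthetic lethal partners of MYC or MYCN. It went from 40.4 CPM to 11.0 and 17.9 CPM (-1.19). Among 50 growth-restraining genes the median was -0.05 (0.09 and 0.0 in the T6 replicates taken singly) and 26 lay below the median gene. In both cultures 3 of 50 were at least 4-fold higher, among them LZTR1 and PAWR (beside 3.06% of all genes), and the TGF-beta receptors TGFBR1 and TGFBR2 at least 4-fold lower (2 of 50, beside 3.09%).

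NEUROG2 lay below its T0 level in CPM in both T6 libraries of NMYC cells. Relative to the median gene it stood at -0.37 in T6 replicate 1 and at -0.04, nearly unchanged, in replicate 2. Its sgRNAs went from 554 counts to 372 and 388, from 134 to 179 and 52 and from 103 to 196 and 156, and the sum from 61.4 CPM to 38.4 and 47.5 CPM (log2 value -0.28). In parental cells NEUROG2 stood at 0.672 CPM at T0, from only 8, 1 and 0 counts, and at 36.2 and 87.6 CPM at T6. NEUROG2 did not pass the test in NMYC cells. The difference between NMYC and parental cells did not pass either (rank aggregation on edgeR p-values, adjusted p = 0.963). Over 41 neural and neuroendocrine factors the median was 0.35 and 19 lay below the median gene. NEUROD2 and FOXA2, at 98.9 to 10.8 and 2.95 CPM and 28.6 to 3.55 and 0.478 CPM, were at least 4-fold lower in both cultures. That is 2 of 41, beside 3.09% of all genes, and 0 of 41 were at least 4-fold higher, beside 3.06%. SCG3 was the list's lowest by rank, although its log2 value was 1.47, and OLIG2 its highest at 1.66. The FOXA2 sum was mostly 1 sgRNA, from 333 counts to 14 and 1.

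Prostate lineage genes lay on both sides of their T0 levels, and 0 passed the test. FOXA1, a pioneer transcription factor of prostate cells, went from 64.7 to 14.2 and 41.5 CPM (-0.96). HOXB13, with 2 kept sgRNAs, went from 23.7 to 17.6 and 18.6 CPM (-0.14). Its value was 0.10 when sgRNAs under 30 counts at T0 were left out across the library. That filter kept both HOXB13 sgRNAs, so only the scaling and the median gene differed. The prostate luminal list had a median of -0.49, and 20 of its 33 genes were under the median gene. In both cultures FKBP4, HSP90AB1, KRT18 and TRPM8 were at least 4-fold higher (4 of 33, beside 3.06% of all genes). KRT8 alone was at least 4-fold lower (1 of 33, beside 3.09%). The keratins of luminal cells went apart: KRT8, on 1 of its 2 kept sgRNAs, from 37.8 to 2.52 and 1.43 CPM and KRT18 from 5.67 to 25.2 and 38.1 CPM. FKBP4, a co-chaperone of steroid receptors, was the highest by rank, from 5.28 to 62.0 and 30.1 CPM (3.14).

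Most core machinery lists lay below or near the median gene, nuclear pore genes above it, and none of their members passed the test. For all genes 50.0% lie below the median by construction, and no list was tested as a set. The proteasome, which degrades ubiquitinated proteins, had the lowest median: -0.99 on the log2 scale, -0.88 and -1.04 in the T6 replicates, with 26 of 32 genes (81.2%) below the median gene. PSMB4, PSMB6, PSMC4 and PSMD11 were at least 4-fold lower in both cultures (4 of 32, beside 3.09% of all genes) and 0 at least 4-fold higher. PSMD11, a subunit of the regulatory lid, went from 178 CPM to 15.4 and 15.4 CPM (-3.22). Most of this sum was 1 sgRNA, from 2190 counts to 94 and 121, while the others went from 3 to 1 and 0 and from 99 to 204 and 72. PSMB6, a catalytic core subunit, likewise rested on an sgRNA that went from 3383 counts to 876 and 265. PSMC4 rested on 1 that went from 2159 to 579 and 79.

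The proteasome genes were also more abundant than most at T0. Their median T0 level was at percentile 63.4 of all genes tested and their median T6 level at percentile 29.8. The part of the T0 level in the list's shift was not tested. Taking the median of each gene's sgRNAs in place of their sum gave a list median of -0.67. Of 92 proteasome sgRNAs, 13.0% were at least 4-fold lower in both cultures and 4.35% at least 4-fold higher, beside 8.79% and 5.77% of all targeting sgRNAs.

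Translation genes had mixed values. The large ribosomal subunit had a median of -0.51 (-0.74 and -0.18 in the replicates), with 26 of 42 genes below the median gene. RPL15 (74.0 to 11.8 and 10.7 CPM), RPL34 and RPL37A were at least 4-fold lower in both cultures (3 of 42, beside 3.09% of all genes). RPL21 was at least 4-fold higher (1 of 42, beside 3.06%). The RPL37A sum was nearly all 1 sgRNA, from 1700 counts to 145 and 83. The small subunit had a median of 0.06 (0.08 and -0.38 in the replicates), with 15 of 31 below. RPS20, at 197.8 to 23.9 and 29.0 CPM, was its lowest by rank. For aminoacyl-tRNA synthetases, which charge tRNAs with amino acids, 14 of 22 were under the median gene (median -0.71). DARS went from 268.9 to 81.9 and 128.2 CPM, and TARS in the other direction from 10.9 to 60.8 and 63.9 CPM. Translation initiation and elongation factors had a median of -0.14 and mitochondrial translation -0.25 with 47 of 77 below. Ribosome biogenesis had 0.06, but -0.19 and -0.08 in the replicates taken singly.

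Of the genes for mitochondrial translation, MRPL46, a large subunit protein of the mitochondrial ribosome, went from 66.8 CPM to 3.14 and 0.558 CPM (log2 value -4.34). TUFM, the mitochondrial elongation factor, went from 2577 counts to 565 and 411 (-2.43). For respiratory chain and ATP synthase genes the median was -0.21, with 34 of 60 under the median gene, 0 at least 4-fold lower in both cultures and 2 (NDUFA9 and NDUFB5) at least 4-fold higher, beside 3.09% and 3.06% of all genes.

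The RNA and transcription lists stood closer to the median gene than the proteasome did. The spliceosome had -0.15 with 37 of 67 below, and PRPF38A, a tri-snRNP-associated factor, went from 103.6 to 6.99 and 12.4 CPM. RNA polymerase II and its general factors had -0.06. TAF4, a TFIID subunit, went from 185 to 7.30 and 8.53 CPM (-4.16), nearly all of it 1 sgRNA, from 2379 counts to 89 and 47, with the others higher in both cultures. POLR2D, a polymerase subunit, went from 9.31 to 73.8 and 35.1 CPM (2.66). This list held 3 genes at least 4-fold lower and 5 at least 4-fold higher of 43, beside 3.09% and 3.06% of all genes. Mediator had -0.10, with MED25 at 142.9 to 7.56 and 11.8 CPM. The MED25 sum was nearly all 1 sgRNA, from 1802 counts to 74 and 31, while another went from 34 to 73 and 116. The RNA exosome had -0.48, with EXOSC4, EXOSC7 and EXOSC10 at least 4-fold lower in both cultures (3 of 14, beside 3.09% of all genes) and 0 members at an unadjusted p under 0.05 by rank aggregation on edgeR p-values. EXOSC4 rested on 1 sgRNA, from 1787 counts to 23 and 68, and the median of its sgRNAs was 0.22. EXOSC7 likewise rested mostly on 1 sgRNA, from 1766 counts to 64 and 187. Of 40 exosome sgRNAs, 17.5% were at least 4-fold lower in both cultures and 10.0% at least 4-fold higher. Over all targeting sgRNAs these shares were 8.79% and 5.77%. DNA replication had 0.12, with the sliding clamp PCNA at 242 to 18.1 and 32.3 CPM. That sum was nearly all 1 sgRNA, from 3103 counts to 322 and 222, and the median of the PCNA sgRNAs was on the other side, at 0.62. Kinetochore, spindle and cohesin genes had 0.09. Nuclear pore and karyopherin genes had the highest median, 0.52, with 12 of 31 below the median gene. The 8 CCT chaperonin genes had -0.34. Cyclins and CDKs had -0.22, but 0.03 and 0.01 in the T6 replicates taken singly.

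The lists also differed in level. At T6 the median percentile of gene level was 26.0 for the MYC and MAX network, 28.0 for the small ribosomal subunit and 29.8 for the proteasome. It was 28.4 for RNA polymerase II and general factors, 34.9 for the large ribosomal subunit and 35.1 for the spliceosome. DNA replication had 44.4 and kinetochore, spindle and cohesin genes 48.1. It was 53.0 for mitochondrial translation, 54.7 for Mediator, 57.5 for aminoacyl-tRNA synthetases and 62.7 for nuclear pore genes. For the 493 olfactory receptor, keratin-associated, bitter taste and beta-defensin genes it was 58.8. Most members of these families, called unexpressed here, are not expected to be expressed in prostate cells, but single members may be. At T0 the percentiles were 36.4 for RNA polymerase II and general factors, 52.1 for the large ribosomal subunit, 41.0 for the spliceosome and 59.1 for the unexpressed families. The unexpressed families had a median log2 value of -0.09, with 257 of 493 below the median gene, 14 at least 4-fold lower and 13 at least 4-fold higher in both cultures, beside 3.09% and 3.06% of all genes.

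In signalling, chromatin, repair and death pathways the list medians lay between -0.19 and -0.10. The RING-type ligase gene RING1, of Polycomb complex 1, went from 355.4 CPM to 26.2 and 40.3 CPM (-3.15). Its Polycomb and DNA methylation list had a median of -0.19 (0.03 and -0.46 in the T6 replicates). EZH2, the catalytic subunit of Polycomb complex 2, went from 62.2 to 69.6 and 94.6 CPM (0.63, but -0.09 by the median of its sgRNAs), and the methyltransferase gene DNMT3B from 5.51 to 54.5 and 27.8 CPM (2.92). MLST8, a subunit of both mTOR complexes, went from 47.5 to 2.36 and 0.638 CPM (-4.05), in a list with a median of -0.12. Of homologous recombination, Fanconi and ATR genes (median -0.10), RAD51C, FANCF and HUS1 were at least 4-fold lower in both cultures (3 of 41, beside 3.09% of all genes). BRCA1 was at least 4-fold higher (1 of 41, beside 3.06%). FANCF rested on 1 sgRNA, from 1115 counts to 13 and 4, while its other kept sgRNA went from 20 to 97 and 147. HUS1 rested mostly on 1 sgRNA, from 1765 to 37 and 191. The apoptosis list (median -0.12) had PMAIP1, BAK1, BAD and BIRC6 at least 4-fold lower in both cultures (4 of 33, beside 3.09% of all genes). It had BIK at least 4-fold higher (1 of 33, beside 3.06%). Of these PMAIP1, BAK1, BAD and BIK promote cell death and BIRC6 inhibits it. BAD rested mostly on 1 sgRNA, from 342 counts to 18 and 3. The list of proposed synthetic lethal partners of MYC or MYCN had -0.13, with 32 of 54 below, and AURKA, a kinase that stabilises the NMYC protein, went from 70.2 to 15.0 and 60.0 CPM (-0.66). Its value was 0.10 in T6 replicate 2 alone and 1.94 by the median of its sgRNAs, so the direction was not stable. Metabolic genes for nucleotides, polyamines, serine and glutamine had -0.13, with ADSL on the higher side. SRM, spermidine synthase, went from 245 to 57.5 and 78.9 CPM through 1 sgRNA, from 2836 counts to 173 and 96, and the median of its sgRNAs was 0.32.

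The difference between NMYC and parental cells in the change from T0 to T6 was tested gene by gene. By rank aggregation on edgeR p-values 0 of 18197 genes were lower and 0 higher (0.0% called in each direction), with 891 (4.90%) and 903 (4.96%) at an unadjusted p under 0.05. With DESeq2 p-values these counts were 0 and 0. Among sgRNAs edgeR gave 0 and 0, with 2660 lower (5.02%) and 1146 higher (2.16%) unadjusted. On summed counts edgeR gave 0 and 0, with 1185 lower (6.51%) and 520 higher (2.86%) unadjusted. Among the 53040 kept sgRNAs DESeq2 gave 1006 lower and 456 higher. Among genes with at least 3 kept sgRNAs, those ranked lowest were CDC25B, RING1, STARD6 and AADAC (adjusted p = 0.91 for each, rank aggregation on edgeR p-values) and QTRTD1. CDC25B, a phosphatase that activates cyclin-dependent kinases, went from 94.4 to 14.1 and 26.2 CPM in NMYC cells and from 1.79 to 57.2 and 80.1 CPM in parental cells (log2 difference -6.66). RING1 differed by -6.56, from 12.7 to 48.8 and 224.8 CPM in parental cells.

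On the other side EPB41L5 ranked first (log2 difference 7.25; adjusted p = 0.257, rank aggregation on edgeR p-values), with 284 CPM at T0 and 38.1 and 27.1 CPM at T6 in parental cells. EDDM3A differed by 6.96 (adjusted p = 0.4), BEND7 by 5.01, BPIFB6 by 5.52 and ARL16 by 0.38. The summed T0 levels of these 10 genes lay far apart in the arms, as for CDC25B, except for ARL16 (179.3 CPM in NMYC and 194.7 CPM in parental cells). The leading ARL16 sgRNA did differ, with 6 counts at T0 in NMYC and 2385 in parental cells. The part of the T0 libraries in these differences was not tested.

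Parental cells, whose libraries are separate, had their own sets of genes past 4-fold. Over 18197 genes the Spearman correlation of the log2 values of the arms was 0.00928, a description over genes. Of the 562 genes at least 4-fold lower in both NMYC cultures, 29 were so in both parental cultures (5.16% of the NMYC set, 4.58% of the 633 parental genes), beside 3.48% of all genes in parental cells. Of the 557 higher ones 53 were shared (9.52% of the NMYC set, 3.41% of the 1554 parental genes), beside 8.54% in parental cells. In opposite directions, 79 genes (14.1% of the lower NMYC set, beside 8.54% of all genes) were 4-fold lower in NMYC and 4-fold higher in parental cells, and 30 genes (5.39% of the higher NMYC set, beside 3.48%) were 4-fold higher in NMYC and 4-fold lower in parental cells.

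From the shared sets, 1 lower and 1 higher gene were named after their values were seen. PRPF38A went from 164.7 to 3.94 and 1.43 CPM in parental cells, beside its values in NMYC cells above. On the higher side EHMT2, a histone methyltransferase, went from 7.30 to 49.3 and 41.8 CPM in NMYC cells and from 1.79 to 27.5 and 55.3 CPM in parental cells.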

How the data were processed

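The authors deposited whole-number read counts for each sgRNA and library, per the file header, and the submitters' processing notes name MAGeCK without a version. How reads were trimmed and matched is not stated there. The labels speak of 65000 sgRNAs, the table lists 55849. All 10 columns matched their samples by name, 0 were left unmapped, and 0 pairs of libraries were identical. Counts were filtered (mean of at least 20; 2809 sgRNAs left out), scaled by TMM and tested in edgeR 4.0.16 (R 4.3.3) with 6 group means and 4 residual degrees of freedom (common dispersion 1.11). The lone T0 library takes its spread from the groups with duplicates. The labels describe duplicate cultures plated after selection, so p-values may measure only spread that arose afterwards. They also mention T0 replicates, of which 1 library per arm was analysed here. T0 and T6 libraries correlated weakly, and the read counting behind them was not tested. Gene scores were computed over targeting sgRNAs by robust rank aggregation (one-sided p of 0.25, exact null), adjusted over all genes per direction at 0.05. The scripts were tested on simulated data, but how large a change the tests could detect in these libraries is not reported here. DESeq2 1.42.0 was an alternative.

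The comparison and the 28 gene lists were chosen with earlier results of these data known. Named genes are, per direction, the 10 smallest p with at least 3 kept sgRNAs (5 for the difference between arms), the 5 smallest sgRNA p, fixed genes (RB1, AURKA, EZH2, HOXB13, FOXA1, NEUROG2, MAX, MYC, MYCN and others not reported here) and the lowest- and highest-ranked member of each list; some of the last are not printed, and members past 4-fold and others said so were named after their values were seen.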

Additional observations from a re-analysis of the deposited data

How the results depend on the processing

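Rank aggregation gave 0 genes in either direction, for NMYC cells and for the difference between arms, under every alternative run. The sgRNA counts that follow are out of 53040 kept sgRNAs. For single sgRNAs in NMYC cells, DESeq2 gave 58 lower and 33 higher, the NMYC libraries alone 38 lower, and leaving out 1 library 0 to 3 lower; in the difference DESeq2 gave 1006 and 456. Genes at least 4-fold higher numbered 190 of 18197 with a pseudocount of 5 CPM, in place of 557 of 18197 (3.06%). They numbered 202 when sgRNAs under 30 counts at T0 were left out. That filter removes sgRNAs scarce at T0 and leaves fewer genes, so 202 and 557 are not like counts. With a single T6 library, 4-fold lower genes numbered 1296 to 1403 and higher ones 1115 to 1150, since the demand on both cultures is gone. With the replicate block, single sgRNAs and genes stayed at 0 lower and 0 higher. T0 was collected before the cultures divided, and same-numbered T6 and T12 libraries did not deviate together (correlation of replicate differences -0.00877 in NMYC and 0.0647 in parental cells).

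Of 89 named genes 21 changed sign under some alternative, in 26 of 857 values. With the median of sgRNA values these were SAMD9 0.77, AHCY 1.59, LRRC52 0.83, FBN3 2.69, EZH2 -0.09, AURKA 1.94, RPLP0 -0.73, PSMA2 1.91, PCNA 0.62, EIF2B5 0.71, EXOSC4 0.22, NUF2 0.38, UBE2C 0.27, SRM 0.32 and FLCN 2.65. With at least 30 counts at T0 they were ARL16 -3.54 (difference), HOXB13 0.10 and CCT8 0.07. The kept sgRNAs of HOXB13 and CCT8 all passed this filter, so only the scaling and the median gene differed for them. MRPL47 had -0.00 without a filter and -0.01 with 5 CPM. Leaving out either T6 library gave FBN3 -0.53 to 0.33, AURKA -1.86 to 0.10, EFTUD2 -0.32 to 2.75, CCT8 -0.45 to 0.16, MRPL47 -0.15 to 0.28 and OR4L1 -0.62 to 0.08. The cause of the other sign changes was not tested. Lists with a median below 0 numbered 22 of 28, and 16 to 22 under the alternatives. With the T6 libraries taken singly, 16 lists had a median below 0 in both, and 22 had the same sign in both. Of 252 list medians under the alternatives, 69 differed from the main value by more than the spread of both T6 libraries.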
